A study of Mus musculus with 4 samples.

Results

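Klhl40, Klhl41, Unc45b, Smyd1, Cdh15, Dysf, Asb2 and Smtnl2 are grouped here as genes of myofibril assembly and myoblast adhesion. Every probe set that the platform annotation names with 1 of these 8 symbols was read, which gave 14 of the 45101 probe sets on the array, for 8 of the 18193 genes named there. The tissue was limb or back muscle of mouse embryos at E13.5, read on Affymetrix arrays. The groups were MyoD-/- limb, WT limb, Myf5-/- back and WT back, and each of these 4 has 1 array. The mutants are labelled as null for Myod1 or Myf5, and the strain of all 4 groups is given as BALB/c. Neither the mutant alleles nor the number of embryos behind a sample is given in the sources used here. The series title names the part that skeletal muscle plays in motor neuron development. With 1 array per group no value has a replicate error and no test over samples was possible, so each difference below is between single arrays.

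A myofibril is the contractile cable of a muscle fibre, and its assembly needs proteins that are not themselves filaments. Klhl40 and Klhl41 are Kelch-repeat proteins that keep thin-filament proteins such as nebulin stable, and loss of either in people causes nemaline myopathy. Unc45b is a co-chaperone that works with HSP90 to fold the myosin head, and Smyd1 is a lysine methyltransferase of heart and skeletal muscle that was found in zebrafish to act in the same myosin assembly step. Asb2 is the substrate receptor of a ubiquitin ligase built on cullin 5 that marks filamins for breakdown during differentiation. Cdh15, M-cadherin, joins myoblasts to each other. Dysf, dysferlin, is a ferlin of the fibre membrane known for membrane repair, and Smtnl2 is a smoothelin-like protein. MyoD and Myf5 set cells on the path to muscle by binding the E-box, a short DNA motif, near muscle genes.

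Signals are intensities scaled so that the 2% trimmed mean of each array is 500. Values under 100 were set to 100 before a log2 ratio was taken, and a gene was called lower or higher when it differed at least 2-fold and its brighter array reached 200. Each gene is represented by its brightest probe set. Where a gene had several probe sets, their log2 ratios had a median SD of 0.35 in the limb pair, 0.32 in the back pair and 0.35 between the WT tissues. This spread covers probe noise and not animals. Between 56.0% and 63.6% of probe sets reached 100 in an array. Myod1, the gene targeted in the limb, was 688 in MyoD-/- limb, against 1438 in WT limb (log2 ratio -1.06). It was thus lower there but still well over 200. Myf5 was at least 2-fold higher in MyoD-/- limb, at 1019, against 506 in WT limb (1.01). In the array labelled Myf5-/- back Myf5 was 583, against 508 in WT back, so it did not show the loss that the label gives. Directions in both pairs therefore rest on the labels, although a probe outside the deleted part would check nothing.

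All 8 genes reached 100 in at least 1 array of each pair, and 7 of them reached 200 in all 4 arrays, Dysf being the exception. WT back was the brightest of the 4 arrays for 7 of the 8 genes, as it was for 20.6% of all genes. The exception was Smtnl2, which was brightest in WT limb. MyoD-/- limb was the dimmest array for 5 of the 8, against 20.8% of all genes. In bulk tissue fewer muscle cells and less RNA per muscle cell cannot be told apart. Both limb arrays were below both back arrays for Klhl40, Smyd1 and Cdh15, 3 of the 8, against 18.3% of all genes. The highest signal over the lowest ranged from at least 2.06-fold for Dysf to 4.77-fold for Klhl41.

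**Figure D1:**
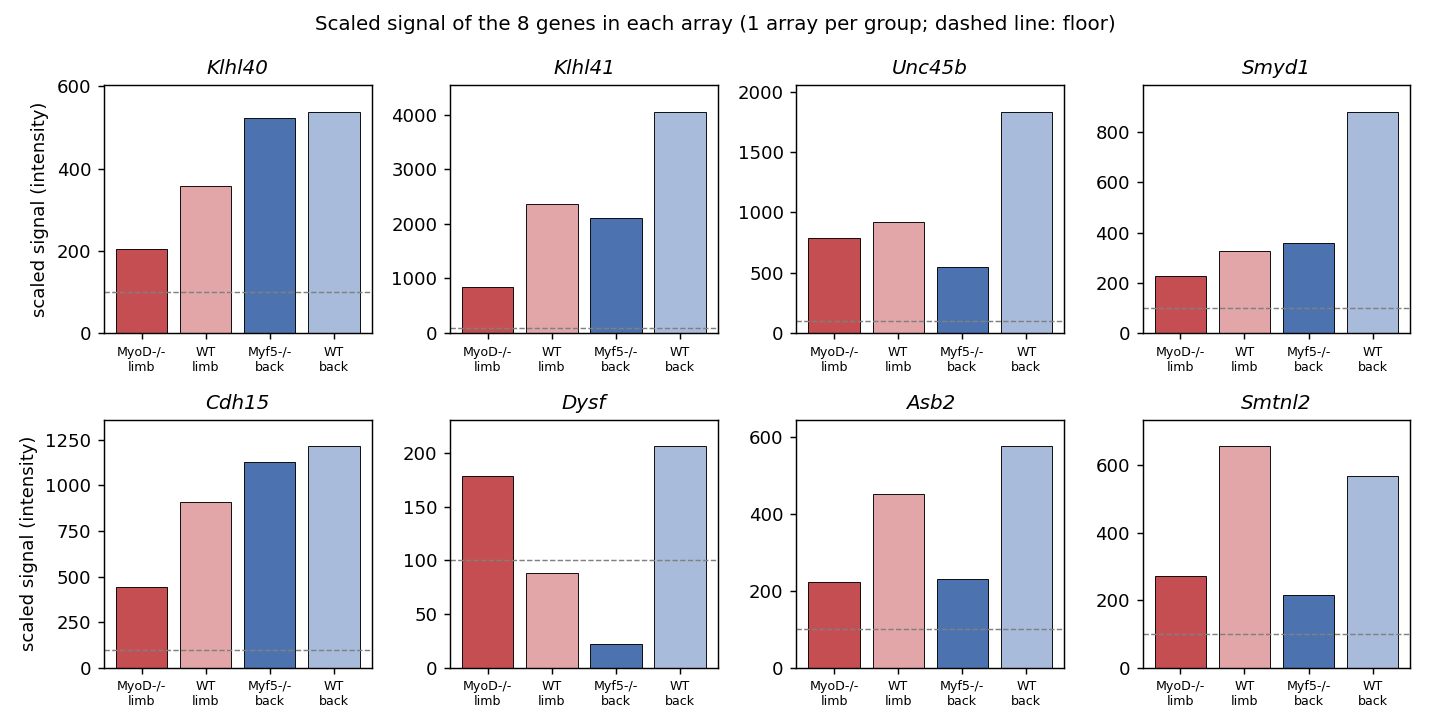
Scaled signal (intensity, linear axis from 0, a scale per panel) of the brightest probe set of each of the 8 genes, 1 bar per array in the order MyoD-/- limb, WT limb, Myf5-/- back and WT back, with the floor of 100 dashed. There are no error bars because each group has 1 array. Both mutant bars stand under their own WT bars for every gene but Dysf, and for Klhl40 and Cdh15 the 2 back bars are nearly level.

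The Kelch-repeat pair differed from each other in the back. Klhl40 was 204 in MyoD-/- limb, against 359 in WT limb (log2 ratio -0.81), and 522 in the array labelled Myf5-/- back, against 539 in WT back (-0.05). Klhl41 was 851 in MyoD-/- limb, against 2359 in WT limb, and 2117 in the array labelled Myf5-/- back, against 4059 in WT back. Both genes were thus lowest in MyoD-/- limb and highest in WT back, but the 2 back arrays were nearly level for Klhl40 and separated for Klhl41. The log2 ratio of Klhl41 was -1.47 in the limb, 2.77-fold lower, and -0.94 in the back, 1.92-fold lower and so just short of the count. Only 0.986% of measured genes had a lower ratio in the limb. For Klhl41, WT limb and the array labelled Myf5-/- back lay within 0.16 on the log2 scale, less than the spread between probe sets.

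The promoter of Klhl41 is shown because its ratio was the lowest of the 8 in MyoD-/- limb and it held matches to 3 of the motifs set in capitals here, and a stretch of the Klhl40 promoter is shown because the E-box CAGCTG lies just before its start. Sequences are from RefSeq on GRCm38.p6, both on the plus strand, chr2:69669870-69670119 for Klhl41 and chr9:121777585-121777614 for Klhl40. Capitals mark, here and in the sequences of Unc45b, Asb2 and Smtnl2, the E-box CAGCTG, the E-box CACCTG on either strand, the MEF2 consensus and the CArG box of SRF.
Klhl41: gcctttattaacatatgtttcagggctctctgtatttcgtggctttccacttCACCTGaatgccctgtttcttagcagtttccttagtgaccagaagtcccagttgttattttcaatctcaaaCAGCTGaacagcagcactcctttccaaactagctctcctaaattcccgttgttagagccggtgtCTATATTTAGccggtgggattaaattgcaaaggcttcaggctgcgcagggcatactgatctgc
Klhl40: aaagcctctgccCAGCTGtcctctgtgcgt
In Klhl41 these were CACCTG from -198, CAGCTG from -127 and a match to the MEF2 consensus from -63, counted from the transcript start, and in Klhl40 CAGCTG from -10.

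By their brightest probe sets, the 2 genes of myosin assembly had lower log2 ratios in the back pair than in the limb pair. Unc45b was 790.3 in MyoD-/- limb, against 918 in WT limb (log2 ratio -0.22), and 544 in the array labelled Myf5-/- back, against 1835 in WT back (-1.75). The limb arrays differed by less than the probe-set spread, and the array labelled Myf5-/- back was the lowest of the 4. Its back ratio, 3.37-fold lower, was the lowest of the 8 genes there, and 0.232% of measured genes were lower. Smyd1 was 229 in MyoD-/- limb, against 325 in WT limb (-0.51), and 359.9 in the array labelled Myf5-/- back, against 882 in WT back (-1.29). WT back stood apart from the other 3 arrays, which lay between 229 and 359.9.

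That reading of Smyd1 rests on 1 probe set of 6, whose name marks probes shared between transcripts. Of the others, the probe set whose name ends in x_at was 292 in MyoD-/- limb, against 396 in WT limb (-0.44), and 442 in the array labelled Myf5-/- back, against 342 in WT back (0.37). A second was 228 in MyoD-/- limb, against 225 in WT limb (0.01), and 403 in the array labelled Myf5-/- back, against 478 in WT back (-0.25). Another was 201 in MyoD-/- limb, against 200.4 in WT limb (0.00), and 319 in the array labelled Myf5-/- back, against 266 in WT back (0.26). None of these 3 was 2-fold lower in the back, so the 2-fold lower Smyd1 in the array labelled Myf5-/- back was seen with 1 probe set only. Of the remaining 2, 1 stayed under 100 in all 4 arrays, and the other reached 146 in MyoD-/- limb and was under 100 in the other 3 arrays.

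**Figure D2:**
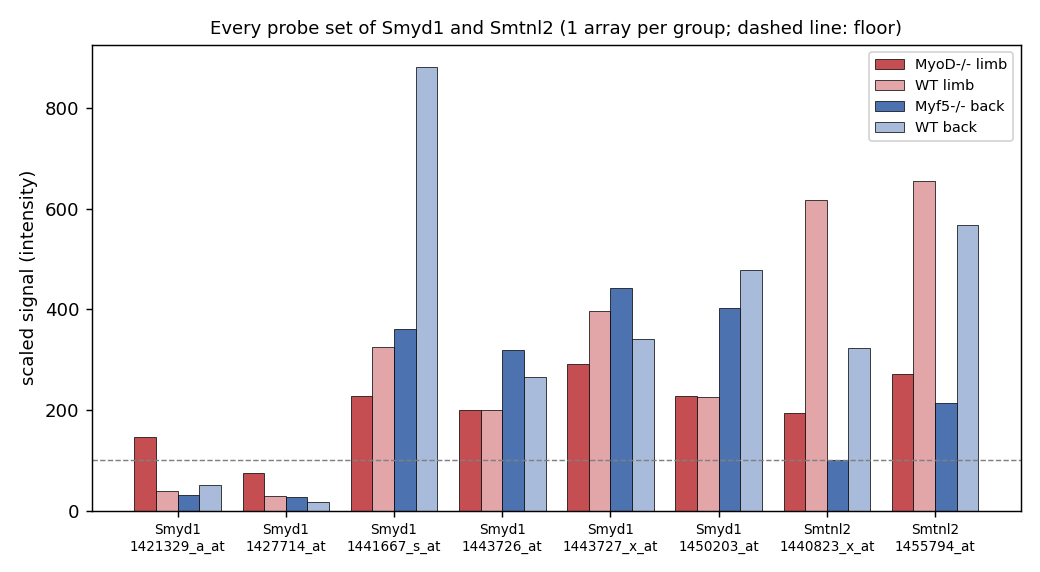
Scaled signal (intensity, linear axis from 0) of all 6 probe sets of Smyd1 and both of Smtnl2, with 1 bar per array, the floor of 100 dashed and no error bars because each group has 1 array. WT back stands far above the other arrays, at 882, in the Smyd1 probe set whose name ends in s_at, and not in the other Smyd1 probe sets, while both probe sets of Smtnl2 show each mutant under its own WT.

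Unc45b is shown as the gene with the lowest back ratio. Its upstream stretch, chr11:82911003-82911252 on the plus strand of GRCm38.p6 in RefSeq, held CACCTG from -43.
Unc45b: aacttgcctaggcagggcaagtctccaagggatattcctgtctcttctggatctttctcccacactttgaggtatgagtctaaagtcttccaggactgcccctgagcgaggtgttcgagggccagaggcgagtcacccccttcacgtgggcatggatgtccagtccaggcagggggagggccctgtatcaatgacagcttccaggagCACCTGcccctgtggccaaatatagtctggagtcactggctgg
The promoter window of Smyd1 held no CANNTG at all, and a match to TATAAA on the opposite strand from -28.

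Asb2 and Smtnl2 were the 2 genes at least 2-fold lower in both pairs, which 0.239% of the genes measured in both were. Asb2 was 222 in MyoD-/- limb, against 453 in WT limb, and 231 in the array labelled Myf5-/- back, against 576 in WT back. Its mutant arrays were both under its WT arrays, and the 2 mutants were within 0.06 on the log2 scale. The log2 ratio was -1.03 in the limb and -1.32 in the back, and the limb value came under 2-fold with quantile normalization (-0.91), loess (-0.94) or a pseudocount of 100 (-0.78). Smtnl2 was 270.4 in MyoD-/- limb, against 655 in WT limb (-1.28), and 214 in the array labelled Myf5-/- back, against 567 in WT back (-1.40). Its second probe set read 194 in MyoD-/- limb, against 618 in WT limb (-1.67), and 99.6 in the array labelled Myf5-/- back, against 323 in WT back, so that the back ratio was a bound of 3.23-fold. The lower level of Smtnl2 in both mutants was thus seen with both of its probe sets. Of the 8 genes, only Smtnl2 and Smyd1 had more than 1 probe set, so the others could not be checked in this way.

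The upstream sequences of these 2 genes are shown because these were the genes at least 2-fold lower in both pairs. Both lie on the minus strand of GRCm38.p6 in RefSeq, chr12:103356002-103356251 for the first start of Asb2 and chr11:72411714-72411963 for Smtnl2. A second start of Asb2 had CAGCTG at 22 bases after it, in chr12:103338352-103338381, of which 30 bases are given.
Asb2: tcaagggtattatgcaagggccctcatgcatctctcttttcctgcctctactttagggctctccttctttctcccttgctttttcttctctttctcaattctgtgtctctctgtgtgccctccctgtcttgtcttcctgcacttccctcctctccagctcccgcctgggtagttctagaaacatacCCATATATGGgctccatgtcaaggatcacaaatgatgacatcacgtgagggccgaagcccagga
Asb2 second start: ccagagacacagCAGCTGtgtccagcacac
Smtnl2: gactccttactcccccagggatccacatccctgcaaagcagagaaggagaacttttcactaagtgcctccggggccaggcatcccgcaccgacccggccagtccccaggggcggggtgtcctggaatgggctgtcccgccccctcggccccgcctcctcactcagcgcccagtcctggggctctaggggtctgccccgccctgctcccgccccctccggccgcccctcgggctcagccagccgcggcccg
The first start of Asb2 held a CArG box from -64. The Smtnl2 window held no CANNTG, and 72% of its 250 upstream bases were G or C, against 50% for Asb2, 56.8% for Unc45b, 45.2% for Klhl41 and a median of 52.4% over all promoters.

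Over the 10 promoter entries of the 8 genes, each 300 bases long, CANNTG was found in 7, against 72.3% of all 32851 entries. CAGCTG was in 3 entries, those of Klhl40, Klhl41 and Asb2, against 16.3% of all. CACCTG, read on both strands, was in the entries of Klhl41 and Unc45b, against 20.2% of all. The MEF2 consensus was in 1 entry, that of Klhl41, against 3.19%, and the CArG box in 1, that of Asb2, against 1.63%. CAGCTG and CACCTG are both forms of CANNTG, so these counts overlap. A match says only that the letters stand in the window.

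The membrane genes did not follow each other. Cdh15 was 442 in MyoD-/- limb, against 908 in WT limb, and 1126 in the array labelled Myf5-/- back, against 1215 in WT back. Its log2 ratio was -1.04 in the limb, 2.05-fold lower, and -0.11 in the back, less than the spread between probe sets. MyoD-/- limb lay apart from the other 3 arrays, of which WT limb was 0.31 below the array labelled Myf5-/- back on the log2 scale. With a pseudocount of 100 the limb ratio of Cdh15 was -0.90 and no longer counted.

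Dysf was dim on every array. It was 178 in MyoD-/- limb, against 87.9 in WT limb, and 22.1 in the array labelled Myf5-/- back, against 206 in WT back. With the floor it was at least 1.78-fold higher in the mutant limb and at least 2.06-fold lower in the mutant-labelled back. It was the 1 gene of the 8 with ratios of opposite sign in the 2 pairs. The limb value stayed under the minimum of 200 and was not counted, and the back call rests on a WT back signal just over that minimum. With a floor of 200 the back ratio was -0.04. Its only probe set has a name that marks probes shared between transcripts.

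Set against all genes, the limb pair had 4 of the 8 at least 2-fold lower (Klhl41, Cdh15, Asb2 and Smtnl2), where 5.19% of measured genes were, and none at least 2-fold higher, where 2.3% were. Below 0 were 7 of 8, against 53.9% of genes, and the median log2 ratio was -0.92, against -0.045 over all genes. In the back pair 5 of 8 were at least 2-fold lower (Unc45b, Smyd1, Dysf, Asb2 and Smtnl2), where 2.48% of measured genes were, and none at least 2-fold higher, where 5.5% were. All 8 were below 0, against 46.2% of genes, with a median of -1.17 against 0.045. In both pairs 7 of 8 were below 0, against 21.2% of genes. As medians over probe sets, 6 of 8 were below 0 in the limb and 7 of 8 in the back. The back ratios of Klhl40 (-0.05) and Cdh15 (-0.11) were smaller than the spread between probe sets. The genes were chosen with results of these data known, so these counts describe them and test nothing.

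The calls fell in different pairs for different genes. Klhl41 and Cdh15 were counted in the limb alone, Unc45b, Smyd1 and Dysf in the back alone, and Asb2 and Smtnl2 in both. The limb log2 ratio minus the back log2 ratio was 1.54 for Unc45b, 1.88 for Dysf and 0.78 for Smyd1. It was -0.93 for Cdh15, -0.77 for Klhl40 and -0.53 for Klhl41, and 0.29 for Asb2 and 0.13 for Smtnl2. With 1 array per group the difference between the pairs was not tested. The value of Smyd1 was 0.26 without probe sets that share probes, and that of Dysf ranged from 0.04 with a floor of 200 to 3.06 with a floor of 50.

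**Figure D3:**
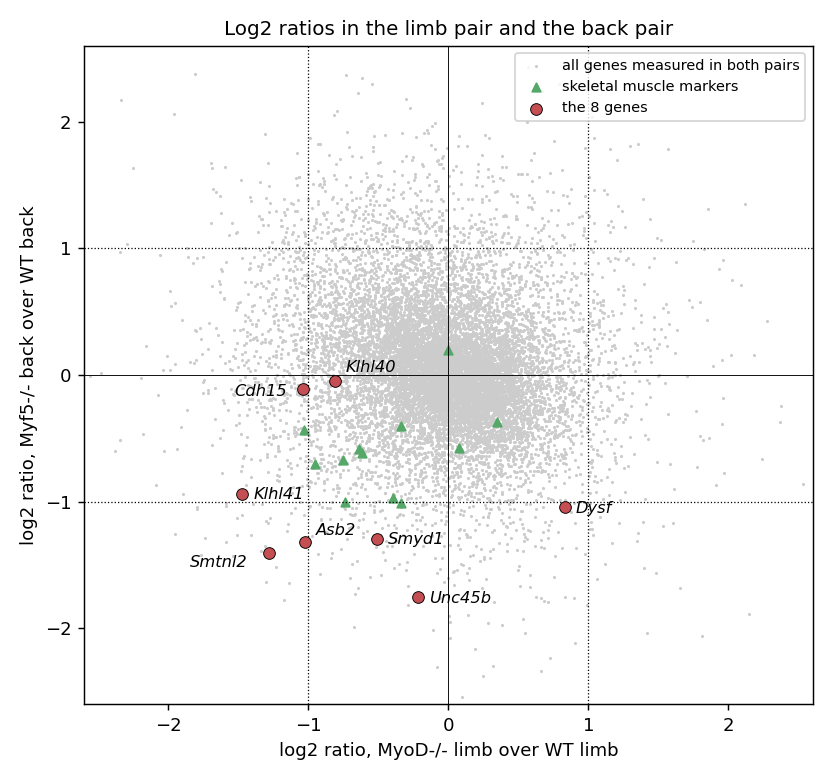
Log2 ratio of MyoD-/- limb over WT limb (horizontal) against that of Myf5-/- back over WT back (vertical), for the 8 genes (red, named), the 12 skeletal muscle markers (green triangles, 1 of them under 100 in both limb arrays and so drawn at 0) and the 13371 genes measured in both pairs (grey). Myf5-/- back is the array so labelled. Of the grey points, 9 lie outside the drawn range of 2.6, and dotted lines mark 2-fold. Asb2 and Smtnl2 lie past both lines at the lower left, Klhl40 and Cdh15 lie left on the horizontal axis, Unc45b lies low near the vertical axis, and Dysf is the red point right of 0.

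The unmutated tissues also differed. WT limb was lower than WT back for 7 of the 8 genes, against 46.8% of all genes, with a median log2 ratio of -0.69 against 0.042. At least 2-fold lower in WT limb were Smyd1 (-1.44) and Dysf (at least 2.06-fold), where 3.5% of genes were, with Unc45b just short of 2-fold at -0.999. The Smyd1 call was lost as a median over probe sets (-0.20), and the Dysf call with a floor of 200 (-0.04) or a pseudocount of 100 (-0.70). None of the 8 was at least 2-fold higher in WT limb, where 5.3% of genes were. Klhl41 (-0.78), Klhl40 (-0.59), Cdh15 (-0.42) and Asb2 (-0.35) followed. Smtnl2 went the other way (0.21), and its second probe set further (0.93). Place on the body, the make-up of the tissue and the array cannot be told apart here, and this comparison shares WT limb and WT back with the mutant pairs.

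General muscle genes were lower in the same arrays. Of the 11 measured skeletal muscle markers, 9 were lower in MyoD-/- limb, among them the actins Acta1 and Actc1, against 53.9% of all genes. Des (0.35) and Myl1 (0.07) went the other way. The median log2 ratio was -0.62, and the summed signal was 55793 against 83816 in WT limb. In the array labelled Myf5-/- back 11 of 12 were lower, against 46.2% of all genes, and Chrnd went the other way (0.20, a bound). The median was -0.60, and the summed signal was 105597 against 160144 in WT back. WT limb was lower than WT back in 11 of 11 (median -0.93), against 46.8% of all genes.

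Below the marker median lay 5 of the 8 genes in the limb (Klhl40, Klhl41, Cdh15, Asb2 and Smtnl2), where 14.4% of all genes did, and 6 in the back (Klhl41, Unc45b, Smyd1, Dysf, Asb2 and Smtnl2), where 8.34% did. Klhl41, Asb2 and Smtnl2 lay below it in both pairs, Klhl41 by 0.86 in the limb and 0.34 in the back, Asb2 by 0.41 and 0.72, and Smtnl2 by 0.66 and 0.80. Unc45b was 0.40 above the marker median in the limb and 1.15 below it in the back. Cdh15 was 0.42 below it in the limb and 0.49 above it in the back. Between the WT tissues 3 of the 8 lay below the marker median (Unc45b, Smyd1 and Dysf), against 4.24% of all genes. A median has as many markers below it as above it, so these counts do not by themselves set the 8 genes apart from the markers. The lowest marker ratios were -1.03 in the limb (Tnnt1), -1.01 in the back (Ttn) and -1.77 between the WT tissues (Ttn).

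Some of the 8 genes are also known from heart, so heart markers were read. In the back 3 of 5 measured heart markers were lower, with a summed signal over 6 genes of 1002 in the array labelled Myf5-/- back, against 1416 in WT back. The atrial peptide gene Nppa was 109.6 in that array, against 369.9 in WT back, and the myosin gene Myh6 was 139 against 461. The heart factor gene Nkx2-5 was higher, at 414 in that array, against 226 in WT back (0.87), and Myl7 was 112 against 87.4 (0.16). Tnni3 was under 100 in all 4 arrays and Myl7 in 3 of them. Cartilage markers were lower in 6 of 6 in the back, with a median of -1.97 and a summed signal of 3313 against 14045, and higher in 6 of 6 in the limb, with a median of 0.26 and 15912 against 13240. The ratio of 3 prime to 5 prime signal of Gapdh, which reads RNA quality and labelling, was 8.06 in MyoD-/- limb, against 12.2 in WT limb, and 9.46 in the array labelled Myf5-/- back, against 6.46 in WT back. That of Actb was 3.86 against 6.88 in the limb and 4.28 against 3.21 in the back. Both ratios were thus uneven within each pair, and highest in WT limb. The part of muscle share, other tissue and labelling in the values of the 8 genes was not tested.

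Genes that work with these 8 were read from lists of families, partners and clients. Of 16 measured genes of thin-filament assembly, 9 were lower in MyoD-/- limb, 1 at least 2-fold, where 5.19% of all measured genes were. The median log2 ratio was -0.16, against -0.045 over all genes. In the back 11 of 16 were lower, 4 of them at least 2-fold, where 2.48% of all measured genes were. At least 2-fold higher was 1, where 5.5% were, and the median was -0.54 against 0.045. Of the 4, Ldb3 (-1.23) had other probe sets at 0.59 and -0.36. The limb median was 0.0038 with quantile normalization, and the back median was -0.18 with medians over probe sets. Flnc, a filamin, was the gene higher in the back, at 3454 in the array labelled Myf5-/- back, against 1667 in WT back (1.05, and 0.96 in its other probe set), and it was 1640.1 in MyoD-/- limb, against 2609 in WT limb (-0.67). Csrp3, a Z-disc protein, was lower in both pairs, at 215 against 474 in WT limb (-1.14) and 309.8 against 968 in WT back (-1.64). Neb, the nebulin that the Kelch proteins stabilise, was 242 in MyoD-/- limb, against 172 in WT limb (0.49), and 452 in the array labelled Myf5-/- back, against 1317 in WT back (-1.54). Lmod3, a leiomodin and a client of Klhl40, looked similar at 219 against 139.7 in WT limb (0.65) and 320.0 against 528 in WT back (-0.72), and was picked out after its values were seen. Neither Neb nor Lmod3 reached 2-fold in the limb, where both were under 200 in WT limb.

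Chaperones of myosin and filaments had 9 of 15 lower in the limb, 1 at least 2-fold, where 5.19% of all measured genes were. The limb median was -0.16 (0.25 without shared-probe probe sets). In the back 13 of 15 were lower, none at least 2-fold, with a median of -0.11. Hspb1, a small heat shock protein, was 753 in MyoD-/- limb, against 1550.0 in WT limb (-1.04), and its other probe set gave -0.94. Hsp90aa1, the partner of Unc45b, was 14892 in MyoD-/- limb, against 15072 in WT limb (-0.02), and 12417 in the array labelled Myf5-/- back, against 17548 in WT back (-0.50), with other probe sets going both ways. Unc45a, the form of Unc45b found in most tissues, was 762 in MyoD-/- limb, against 1151 in WT limb (-0.59), but its other probe sets gave 0.90 and -0.92.

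The families of the 8 genes were read in the same way. Kelch-like genes and Cul3 were higher in 8 of 12 in the limb (median 0.37) and lower in 10 of 13 in the back (median -0.26). At least 2-fold lower in the back were 3 of the 13, where 2.48% of all measured genes were: Klhl2 at 145 against 626 in WT back (-2.11), Klhl30 at 109 against 269 (-1.30) and Klhl13 at 3970.3 against 8057 (-1.02). A further probe set of Klhl2 gave 0.49. Smyd2, Smyd3, Smyd4, Smyd5 and Naca were higher in 5 of 5 in the back (median 0.52), none at least 2-fold, and lower in 3 of 5 in the limb (median -0.13, and 0.24 without shared-probe probe sets). The Asb family with its ligase had 8 of 15 lower in the limb (median -0.05) and 7 of 16 lower in the back (median 0.01), and both medians turned sign under other settings. Asb18 was 161 in MyoD-/- limb, against 336 in WT limb (-1.06), and 115 in the array labelled Myf5-/- back, against 214 in WT back (-0.89), where its other probe set gave 0.89. Smtn, the smoothelin of smooth muscle, was 261 against 213 in WT limb (0.29) and 509.9 against 415 in WT back (0.30), and Smtnl1 was under 100 in all 4 arrays.

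Cadherins and catenins had 5 of 14 lower in the limb (median 0.02) and 8 of 16 lower in the back (median 0.00, and -0.046 with quantile normalization). Cdh3, P-cadherin, was 90.6 in MyoD-/- limb, against 521 in WT limb, at least 5.21-fold lower, with -1.04 in another probe set. Cdh22 was 252 in the array labelled Myf5-/- back, against 126 in WT back, 2.01-fold higher. Ferlins and membrane repair genes had 7 of 12 lower in the limb (median -0.05) and 6 of 13 in the back (median 0.00), both turning sign with quantile normalization, with none at least 2-fold different in either pair. Of 23 measured genes of myoblast adhesion and fusion, 12 were lower in the limb (median -0.05, and 0.034 with quantile normalization) and 13 in the back (median -0.11). At least 2-fold different were 1 in the limb, higher, and 1 each way in the back. Of all measured genes 2.3% were higher in the limb, and in the back 2.48% were lower and 5.5% higher. Itgb1, the beta 1 integrin, was the gene higher in the limb, at 1599 in MyoD-/- limb, against 527 in WT limb (1.60), and lower in the back, at 643 in the array labelled Myf5-/- back, against 1446 in WT back (-1.17), while its other probe sets went both ways. Elmo1, which acts on Rac in cell fusion and migration, was the gene higher in the back, at 339 in the array labelled Myf5-/- back, against 152 in WT back (1.16, and 0.68 in another probe set). Short of 2-fold in both pairs, Mymk, the membrane protein that drives myoblast fusion, was 603 against 956 in WT limb (-0.67) and 1081 against 1953 in WT back (-0.85). Adam12, a membrane metalloprotease of fusing myoblasts, was 349.7 against 646 in WT limb (-0.88) and 288 against 540.2 in WT back (-0.91), also short of 2-fold, and a dimmer probe set gave -0.11 in the back.

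**Figure D4:**
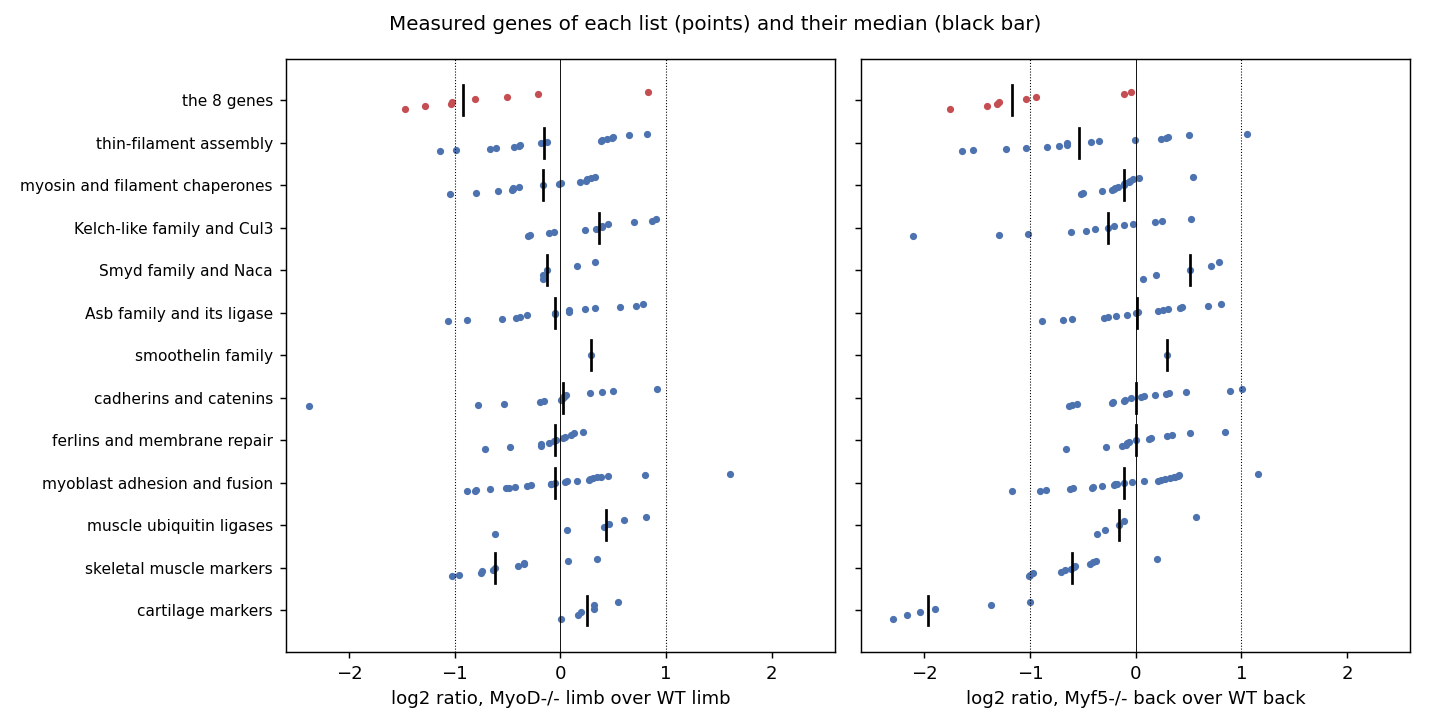
Log2 ratios of every measured gene (points) in each list, for MyoD-/- limb over WT limb (left) and Myf5-/- back over WT back (right), with the median of each list as a black bar and dotted lines at 2-fold. The medians of the 8 genes lie at -0.92 and -1.17, and those of the skeletal muscle markers at -0.62 and -0.60. The family medians range from -0.13 to 0.37 in the limb and from -0.26 to 0.52 in the back, with 1 measured gene in the smoothelin family. Thin-filament assembly lies at -0.16 and -0.54, chaperones at -0.16 and -0.11, and adhesion and fusion at -0.05 and -0.11. Muscle ubiquitin ligases lie at 0.44 and -0.16, and cartilage markers at 0.26 and -1.97.

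The genes whose 4 signals were most like the mean of 7 of the 8 genes (without Dysf) were found by the Euclidean distance between centred log2 signals, over the 9061 other genes at 200 or more in all 4 arrays. The nearest was Tmod1, tropomodulin, which caps the slow-growing end of the thin filament, and it is also in the thin-filament list. It lay at a distance of 0.085, where the median gene lay at 1.19. Tmod1 was 455 in MyoD-/- limb, against 902 in WT limb, and 697 in the array labelled Myf5-/- back, against 1426 in WT back. Abca9 (0.089), the acetylcholine receptor gene Chrna1 (0.12), the muscle phosphoglycerate mutase Pgam2 (0.13), Tmco1 (0.19), the calsequestrin Casq2 (0.23), Synpo2l (0.24) and Ank1 (0.25) followed. Each ran in the same order as the mean, MyoD-/- limb lowest and WT back highest, over only 4 arrays, which follows from how they were picked. In the mean the array labelled Myf5-/- back lay under WT limb. Of the averaged genes, Klhl41 and Asb2 ran in that full order. Klhl40, Smyd1 and Cdh15 had WT limb under the array labelled Myf5-/- back, and Unc45b and Smtnl2 were lowest in that array.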

How the data were processed

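Trizol-extracted RNA (6 µg a sample) was made into biotinylated cRNA, per the labels' protocols. The deposited table gives each probe set 1 linear intensity per array, and the submitters' processing notes name MAS5 with no version. In the deposited columns, 2% trimmed means lay between 1477 and 1479, so the arrays had already been scaled alike.

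Arrays were rescaled so that this mean, taken without control probe sets, was 500. A floor of 100 was then set. Of 45101 probe sets, 64 are controls and 9211 are not listed in the platform annotation and are unnamed here. With controls left out, 34945 have 1 gene symbol and 932 have several. The probe set brightest on average (log2) stands for its gene. A signal under 100 gives a bound ("at least N-fold"). Named genes are the 8 genes with all probe sets, Myod1, Myf5 and Myog, up to 4 genes per list and pair with the largest ratio, counted family genes and the 8 nearest profiles; the text gives part of them. Marker genes named one by one (Met, Pax7, Pax3, Lbx1, Heyl, Nppa, Myh6, Nkx2-5, Myl7 and Tnni3) and Lmod3 were picked after their values were seen. Genes and lists were chosen with earlier results of these data known. Percentages of genes are over those at 100 or more in 1 of the compared arrays. As 8 alternatives, floors of 50 and of 200, a pseudocount of 100, quantile normalization, within-pair loess, the deposited scale, medians over probe sets, and no shared-probe probe sets were tried. Ratios were tested on simulated data with known changes, planted in bright probe sets only, so signals near the floor were not covered. Python 3.11.15, pandas 2.3.3, scipy 1.17.1 and statsmodels 0.14.6 were used. The number of arrays limits the precision.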

Additional observations from a re-analysis of the deposited data

Results flagged for a closer look

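Results of 3 kinds pointed opposite ways in the limb pair and the back pair, and with 1 array per group none of these differences was tested. Dysf had a log2 ratio of 0.83 in MyoD-/- limb over WT limb and -1.04 in the array labelled Myf5-/- back over WT back, both bounds near the floor. Itgb1, the beta 1 integrin of myoblast adhesion, was at least 2-fold different in both pairs, at 1599 in MyoD-/- limb, against 527 in WT limb (1.60), and 643 in the array labelled Myf5-/- back, against 1446 in WT back (-1.17). Its probe set has a name that marks shared probes, and its other probe sets gave 0.77 and -0.38 in the limb and -0.81, 0.50 and -0.76 in the back. Cartilage markers had a median of 0.26 in the limb pair, with 6 of 6 above 0, and -1.97 in the back pair, with 6 of 6 below 0.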

How the results depend on the processing

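No paired analysis was possible because each group has 1 array, which also leaves no array to leave out. List medians near 0 had no settled sign: of 13 list medians, 6 in the limb pair (main medians within 0.16 of 0), 3 in the back pair (within 0.012) and 2 between the WT tissues (within 0.045) turned sign under at least 1 of the 8 alternatives. For the limb pair, 2 genes were at least 2-fold lower with a pseudocount of 100 (4 in the text), and 1 was higher under quantile normalization, Dysf. In the back pair 3 were lower without shared-probe probe sets (5 in the text), where Dysf has no value. Between the WT tissues 1 was lower (2 in the text) with a floor of 200 or a pseudocount of 100, which lose Dysf, with medians over probe sets, which lose Smyd1, or with no shared-probe probe sets, where Dysf has no value. The limb minus back value of Smyd1 was 0.0007 as a median over probe sets and 0.26 without shared-probe probe sets (0.78 in the text), and that of Dysf 3.06 and 0.043 with floors of 50 and 200. Without shared-probe probe sets the limb medians of the chaperones (0.25) and the Smyd family (0.24) turned positive. As medians over probe sets, ubiquitin ligases had 0.044 in the limb, and in the back thin-filament genes had -0.18, the Smyd family 0.19 and cartilage markers -1.18 (-1.61 with a pseudocount). The causes were not tested. Counts over all genes depend on the scaling and floor: 753 genes were at least 2-fold lower and 334 higher in MyoD-/- limb, against 179 and 114 with a floor of 200, and 30.7% of calls were higher, against 45.4% under quantile normalization and 48% after loess. In the array labelled Myf5-/- back 364 were lower and 808 higher, against 123 and 151 with a floor of 200, and 68.9% of calls were higher, against 50.4% and 48.6%. Signals under 200, as for Dysf, limit its values.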

Other observations

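Muscle ubiquitin ligases outside the Kelch and Asb families were read as well. In the limb 5 of 6 measured genes were higher in MyoD-/- limb, none at least 2-fold, with a median log2 ratio of 0.44, against -0.045 over all genes. In the back 4 of 5 were lower, again none at least 2-fold (median -0.16, against 0.045). Trim54, a muscle RING-finger protein, was higher in both mutants, at 295 against 169 in WT limb (0.81) and 260.1 against 176 in WT back (0.57). Trim63, MuRF1, was lower in both, at 211 against 323 in WT limb (-0.62) and 214 against 276 in WT back (-0.37).

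Markers of muscle progenitors went both ways. By the brightest probe sets, 4 of 6 were higher in MyoD-/- limb and none reached 2-fold (median 0.26). Met, the HGF receptor, was highest by ratio at 731 against 439 in WT limb (0.73), and Heyl was lowest at 205 against 284 (-0.47). Dimmer probe sets did pass 2-fold in the limb. For Heyl 1 gave 121 against 331 (-1.45), and for Lbx1 1 gave 213 against 94.7 (1.09, a bound), where its brightest gave -0.33. In the array labelled Myf5-/- back 4 of 6 were lower, 1 at least 2-fold (median -0.09). That gene was Pax7, the factor of muscle stem cells, at 261 against 681 in WT back (-1.38), while Pax3 was 199 against 113 (0.82) and Lbx1 was 194 against 123 (0.66). A dimmer probe set of Pax7 was 12.5 against 150 in WT back (-0.59, a bound), so the 2-fold call was seen with 1 probe set only.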
